A study of Homo sapiens with 34 samples.

Results

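The 9 genes TAP1, TAP2, TAPBP, PSMB8, PSMB9, PSMB10, ERAP1, ERAP2 and NLRC5 serve class I antigen presentation. Their products cut, carry, load or trim its peptides, except NLRC5, which activates genes of the pathway. They were taken by symbol, with every probe the array annotation assigns to them, and account for 18 of 47230 probes and 9 of 20046 genes on the chip. All 9 had at least 1 probe above background in at least 1 group and entered the tests, on 17 of the 18 probes, and a second ERAP1 probe was not above background in any group.

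Total RNA came from 3 human hepatocellular carcinoma lines, HepG2, SNU398 and SNU475, all obtained from ATCC, and was hybridised to Illumina expression arrays. Treatment was SGI-110, a dinucleotide prodrug of decitabine that blocks DNA methylation, dosed at 100 nM once a day on 3 days (72 h of exposure), with harvests on later days. Each line was sampled untreated (day 0) and on days 3, 10, 17 and 24, and SNU475 also on days 31 and 56. This gave 17 groups of 2 arrays, 34 arrays in all. The labels do not say that the 2 arrays of a group are separate cultures, so the p-values measure the spread between these arrays, which may be technical. Each group is 1 line, and untreated arrays exist at the start only, so that time in culture and treatment move together.

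Class I molecules display short peptides at the cell surface for CD8+ T cells. Proteins are cut by the proteasome, and under interferon gamma its catalytic subunits PSMB6, PSMB7 and PSMB5 are exchanged for PSMB9, PSMB10 and PSMB8, which together make the immunoproteasome. TAP1 and TAP2 form the transporter that carries peptides into the endoplasmic reticulum, TAPBP (tapasin) holds empty class I molecules at that transporter, and the aminopeptidases ERAP1 and ERAP2 trim peptides there. NLRC5 is a transactivator of class I genes and of several genes of this pathway.

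Levels below are log2 intensities after background correction and quantile normalization, and a probe counted as above background where it exceeded 6.97. They compare samples for 1 probe and not 1 gene with another. A change is a difference of 2 group means on the log2 scale with its standard error (SE), and a gene was called higher or lower in limma at an adjusted p under 0.05 over 15297 genes. The deposited arrays fall into 3 sets with coinciding medians: the first holds HepG2 and untreated SNU398, the second treated SNU398 with SNU475 at days 0 and 3, and the third SNU475 from day 10 on. Changes of SNU398 from untreated, and of SNU475 from day 10 on, therefore compare arrays of different sets, and set and group cannot be told apart there. HepG2 comparisons, SNU475 at day 3 and the comparisons between treated days of SNU398 or of later days of SNU475 lie within a set. Of 10 hepatocyte markers tested, all 10 were above background in every HepG2 group, 2 to 3 in SNU398 and 4 to 6 in SNU475, so that most of these markers were not above background in the SNU398 arrays.

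Of the members, 5 lie on chromosome 6, 2 on chromosome 5 and 2 on chromosome 16 (RefSeq, GRCh38.p14). TAP2, PSMB8, TAP1 and PSMB9 follow each other between positions 32821831 and 32859851 of chromosome 6, and TAPBP lies at 33299694 to 33314078. TAP1 and PSMB9 are transcribed in opposite directions from starts 488 bases apart. RefSeq windows from 250 bases before to 50 bases after a start were found for 8 members, 12 windows in all. The core of the interferon-stimulated response element, searched as GAAA, any 2 bases and GAAA on both strands with overlapping matches allowed, occurred in 7 of the 12 windows, at least 1 for each of 7 members. It occurred in 3.57% of all 34943 windows of that length. The windows below are of genes shown because TAP1 and PSMB9 share the stretch between their starts, TAP2 and PSMB8 are their neighbours, and ERAP2 has the largest changes among the members. TAP1, PSMB8 and ERAP2 each have another window, which holds no match and is not shown. Capitals mark the matches, and each window is given 5′ to 3′ on the strand of its gene. A match is a description of letters, not a binding site.
TAP1, chr6:32853655-32853954, minus strand: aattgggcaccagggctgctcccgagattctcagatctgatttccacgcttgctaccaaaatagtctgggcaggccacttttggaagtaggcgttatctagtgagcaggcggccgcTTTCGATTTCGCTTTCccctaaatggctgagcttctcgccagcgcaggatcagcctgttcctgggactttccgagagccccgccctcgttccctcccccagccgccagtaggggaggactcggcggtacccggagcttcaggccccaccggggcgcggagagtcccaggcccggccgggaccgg
PSMB9, chr6:32853942-32854241, plus strand: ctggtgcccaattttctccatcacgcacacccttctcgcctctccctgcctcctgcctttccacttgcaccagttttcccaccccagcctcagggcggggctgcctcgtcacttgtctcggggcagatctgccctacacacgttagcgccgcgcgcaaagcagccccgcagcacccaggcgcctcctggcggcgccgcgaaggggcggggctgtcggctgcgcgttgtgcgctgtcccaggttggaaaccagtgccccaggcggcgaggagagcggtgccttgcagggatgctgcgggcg
TAP2, chr6:32838690-32838989, minus strand: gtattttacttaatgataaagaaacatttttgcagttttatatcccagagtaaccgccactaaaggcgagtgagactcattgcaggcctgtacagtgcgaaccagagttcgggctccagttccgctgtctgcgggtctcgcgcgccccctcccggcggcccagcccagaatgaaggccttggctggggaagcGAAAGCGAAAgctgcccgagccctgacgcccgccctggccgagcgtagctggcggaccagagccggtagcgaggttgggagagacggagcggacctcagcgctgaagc
PSMB8, chr6:32843998-32844297, minus strand: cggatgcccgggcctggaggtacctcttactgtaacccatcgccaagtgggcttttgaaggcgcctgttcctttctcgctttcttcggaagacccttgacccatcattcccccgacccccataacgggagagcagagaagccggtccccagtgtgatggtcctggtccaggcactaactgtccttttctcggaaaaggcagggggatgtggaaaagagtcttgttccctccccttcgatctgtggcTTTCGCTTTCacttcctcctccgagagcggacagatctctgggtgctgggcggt
ERAP2, chr5:96876250-96876549, plus strand: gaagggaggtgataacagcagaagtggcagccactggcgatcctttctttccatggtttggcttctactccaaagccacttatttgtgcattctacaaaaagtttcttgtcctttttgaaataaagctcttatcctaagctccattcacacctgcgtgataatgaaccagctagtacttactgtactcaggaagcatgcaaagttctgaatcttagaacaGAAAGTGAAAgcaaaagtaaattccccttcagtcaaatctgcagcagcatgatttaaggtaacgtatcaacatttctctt
The TAP1 window holds 2 overlapping matches, from 134 to 119 bases before the start. They lie 58 to 49 bases before the TAP2 start and 30 to 21 bases before the ERAP2 start, and in PSMB8 they span the start itself. No match is in the PSMB9 window. The 2 TAP1 matches do lie between the TAP1 and PSMB9 starts, beyond the 250 bases before the PSMB9 start that its window covers. The PSMB9 window holds 26 CpG dinucleotides, against 22 for TAP1, 24 for TAP2, 15 for PSMB8 and 3 for ERAP2. The median over all windows was 14. The interferon gamma activated site, searched as TTC, any 3 bases and GAA, occurred once in the PSMB8 window shown and once in the TAP1 window not shown. It occurred in 7.66% of all windows, and the GC box GGGCGG in 44.9%.

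Untreated SNU475 had the higher level of 6 members when set against SNU398 and of 8 when set against HepG2 (NLRC5 among the 8, without being above background in either line), while no member was called lower in SNU475 in either comparison. For 2 of the 8 the direction turned with the probe: the dimmer ERAP2 probe was higher in HepG2 than in SNU475 by 1.83 (adjusted p = 3.72e-11), and the dimmer TAP2 probe by 0.37, which was not called. The NLRC5 call was lost without HepG2 replicate 1 (adjusted p = 0.0814) or SNU475 replicate 1 (0.0816). PSMB8, which replaces PSMB5 in the immunoproteasome, differed most between SNU475 and SNU398. It read 11.82 and 11.72 on the untreated SNU475 arrays, 10.52 and 10.40 in HepG2, and 6.77 and 7.11 in SNU398, where 1 of the 2 arrays was above background. The groups did not overlap. With the SNU398 array below background set to the threshold, PSMB8 was at least 26.5-fold lower in SNU398 than in SNU475 (adjusted p = 1.24e-22) and at least 10.7-fold lower than in HepG2 (adjusted p = 1.64e-19). HepG2 was 2.48-fold below SNU475.

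PSMB9, the counterpart of PSMB6, stood at 10.92 and 10.73 in untreated SNU475, 8.41 and 8.11 in HepG2 and 7.89 and 7.81 in SNU398. SNU475 was thus 7.88-fold above SNU398 (adjusted p = 2.01e-15) and 5.92-fold above HepG2 (adjusted p = 5.97e-14). The HepG2 to SNU398 difference of 0.41 ± 0.17 (adjusted p = 0.0367) lost its call without HepG2 replicate 1 (adjusted p = 0.299) or either SNU398 array (0.0736 and 0.14). PSMB10, which replaces PSMB7, varied less, with untreated levels of 13.20 and 13.27 in SNU398, 13.00 and 12.91 in SNU475 and 12.75 and 12.41 in HepG2. SNU398 and SNU475 were not called apart in PSMB10 (adjusted p = 0.0662), and the call between HepG2 and SNU475 (-0.37 ± 0.13) was lost without HepG2 replicate 2 (adjusted p = 0.281) or SNU475 replicate 1 (0.103).

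The transporter genes were also highest in untreated SNU475. TAP1 read 12.25 and 12.42 there, 11.71 and 11.67 in HepG2 and 10.74 and 10.78 in SNU398, and the order SNU475, HepG2, SNU398 was called at both steps (differences of 0.64 and 0.93). TAP2 had another order, with 10.19 and 10.43 in SNU475, 9.38 and 9.33 in SNU398 and 7.93 and 8.27 in HepG2, and HepG2 was 4.62-fold below SNU475 (adjusted p = 7.69e-14). This order holds for the brighter TAP2 probe: on the dimmer one HepG2 was above SNU398 by 0.56 (adjusted p = 0.011) and above SNU475 by 0.37 (adjusted p = 0.092). TAPBP was higher in SNU475 (11.30 and 11.13) than in HepG2 (10.70 and 10.54) or SNU398 (10.54 and 10.54), by 0.60 and 0.67. For ERAP1, levels were low in every line, 7.90 and 7.72 in SNU475, 7.85 and 7.45 in HepG2 and 7.21 and 7.09 in SNU398, with SNU398 called below both others. Its difference between HepG2 and SNU398 (0.49 ± 0.15, adjusted p = 0.00464) had an adjusted p of 0.153 without HepG2 replicate 1. Untreated NLRC5 was not above background in any line.

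The members called numbered 6 for SNU398 against SNU475, 8 for HepG2 against SNU475 and 7 for HepG2 against SNU398, where 60.1%, 58.8% and 58.5% of all genes were called. The first 2 of these compare arrays of different sets. The plot of levels by line and day shows these starting points and the days that follow.

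**Figure D1:**
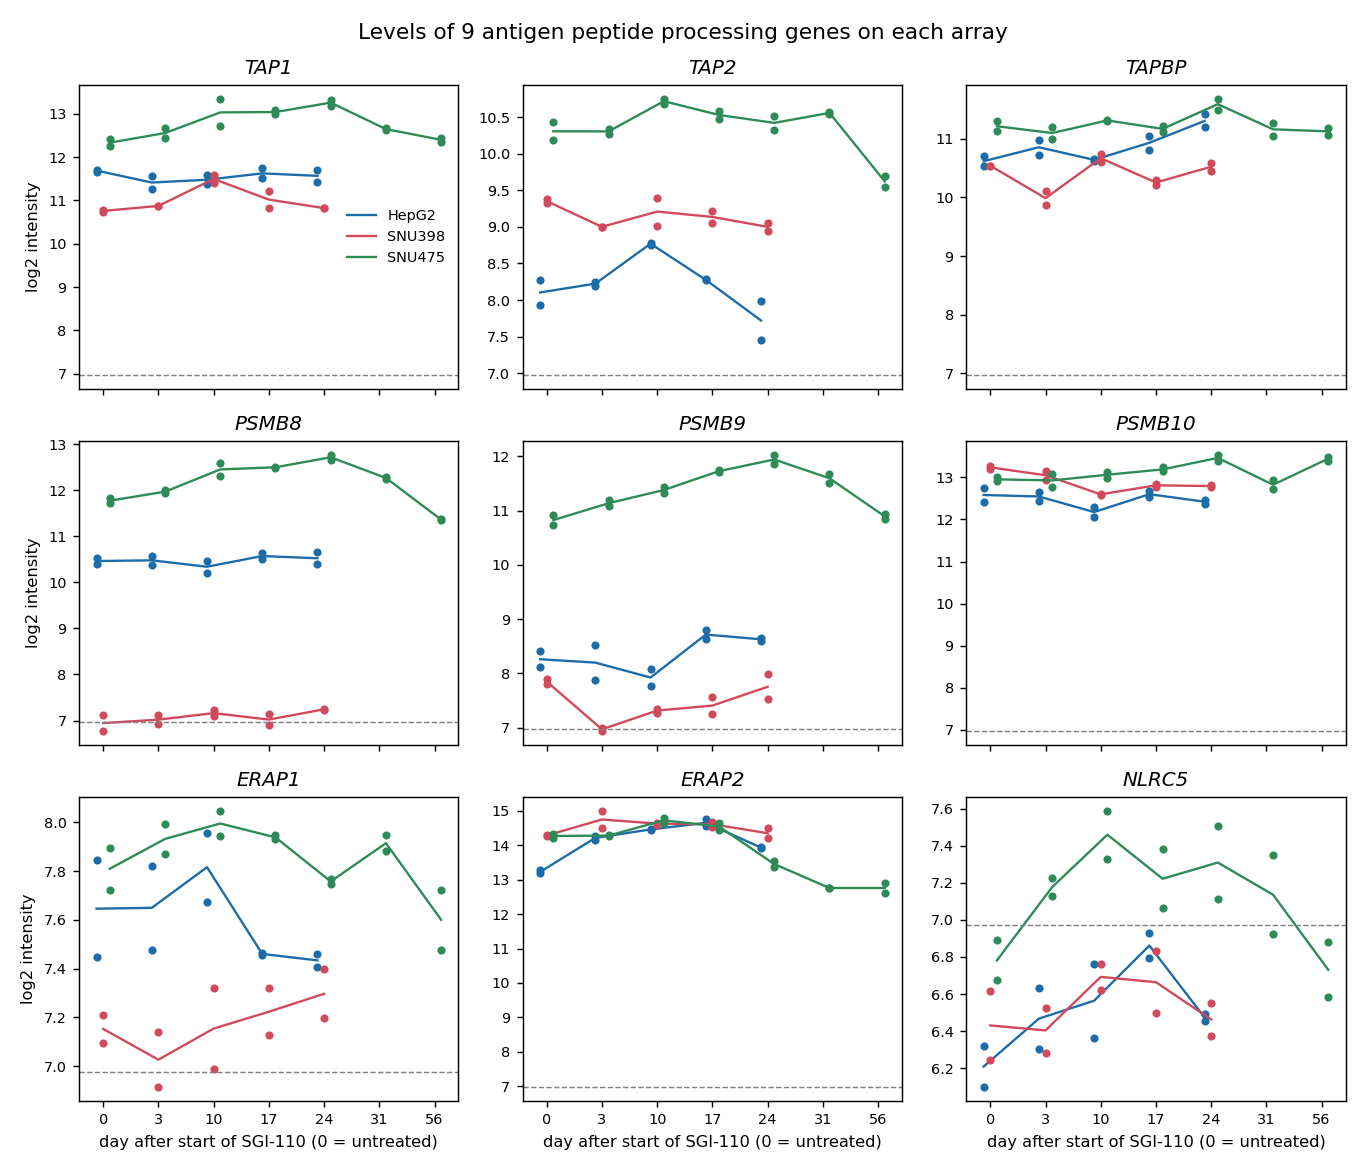
Normalized log2 intensity (vertical axis) of the 9 members on each of 34 arrays, by day (horizontal axis, evenly spaced, 0 = untreated) and line (colour). Points are arrays, lines join group means of 2 arrays, and the dashed line is the background threshold of 6.97; PSMB8 lies near it in SNU398 and above 10 in HepG2 and SNU475.

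After treatment, the members moved in different ways in the 3 lines. SNU475 had 6 of 9 called higher and 0 lower at day 10, 3 and 0 at day 17, 6 and 1 at day 24, 2 and 1 at day 31 and 1 and 3 at day 56, after 0 called at day 3. The shares of all genes called in either direction on these days were 20.6%, 14.7%, 34.3%, 14.1% and 47.7%, with 3.79% at day 3. For increases alone, 11.6% of genes were called at day 10 and 18.5% at day 24. The median change of the 9 members was 0.46 at day 10 and 0.51 at day 24, beside medians of 0.01 and 0.02 over all genes, and it was -0.09 at day 56. ERAP2, on its brighter probe, is among those called higher at day 10. On that probe it is also the 1 called lower at days 24 and 31 and among the 3 called lower at day 56. The dimmer ERAP2 probe was not called on any SNU475 day. NLRC5 is among the 6 called higher at days 10 and 24. Its probe passed the background filter only through SNU475 at days 3, 10, 17 and 24, so these calls are partly selected for. HepG2 had 1 higher and 0 lower at day 3, 2 and 1 at day 10, 3 and 0 at day 17 and 2 and 0 at day 24, where 14.7%, 32.8%, 25.8% and 26.0% of all genes were called. ERAP2 was among those called higher on each of these days, on its brighter probe. The dimmer ERAP2 probe was not called higher on any of them. The others called higher at day 17 were PSMB9, whose second probe read -0.02, and NLRC5, for which neither group was above background. In SNU398 there were 1 higher and 2 lower at day 3, 1 and 2 at day 10, 0 and 2 at day 17 and 0 and 1 at day 24, with 33.5%, 35.4%, 34.5% and 19.9% of all genes called. In these 2 lines the share of members called lay below the share of all genes on 6 of the 8 days.

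The counts in SNU475 depended on the scaling between arrays. At day 10, 3 members were called when the deposited scaling was kept and 3 with median scaling, since TAP2, PSMB9 and ERAP2 lost their calls both ways. The changes of TAP1, PSMB8 and NLRC5 at day 10, and of TAP1, PSMB8 and PSMB9 at days 17 and 24, kept theirs. The summed level of 6 fibroblast markers was 64.4 on both untreated SNU475 arrays, 71.9 and 72.8 at day 10, 68.1 and 68.6 at day 31 and 76.5 and 76.6 at day 56. All 6 were above background throughout, and the part of this sum in these changes was not tested. COL3A1 had a lower mean at day 56 (12.75) than untreated (14.04), while the other markers of this list had higher ones. The summed level of 8 leukocyte markers was 63.8 and 64.8 on the untreated arrays and between 63.6 and 64.9 from day 10 on. In SNU398 the fibroblast sum went from 54.7 to 59.4 and 59.6 at day 10, with 4 and then 5 of 6 above background. In HepG2 the leukocyte sum went from 71.6 and 72.5 to 77.2 on both day 10 arrays, with 6 of 8 above background in both groups. The markers went different ways. Mean levels rose for CD14 (9.01 to 12.76), FCER1G (7.51 to 9.73) and CD68 (10.36 to 11.21). They were lower at day 10 for CD3D, MS4A1, ITGAM, CD79A and LYZ. Of 3 endothelial markers, 0 to 2 were above background in HepG2. The part of these markers in the SNU398 and HepG2 results was not tested either.

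**Figure D2:**
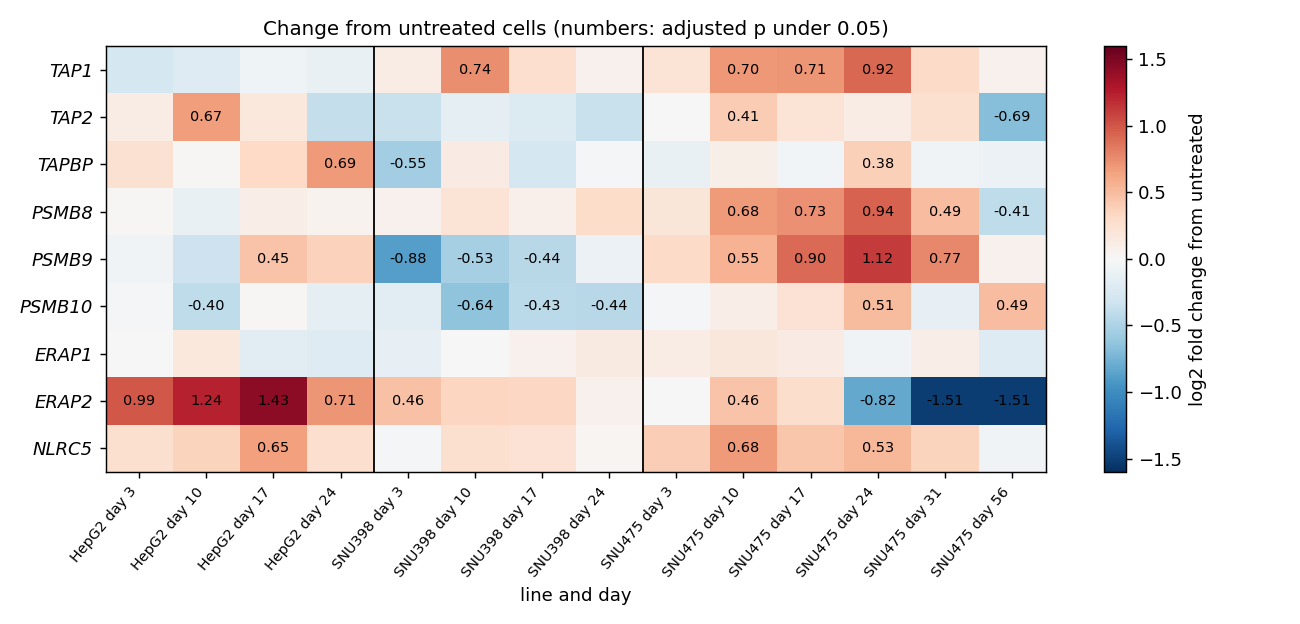
Log2 fold change from untreated cells of the same line (colour scale) for 9 members (rows) in 14 comparisons of a line and day (columns). A number marks a change called at an adjusted p under 0.05: the SNU475 columns hold increases of TAP1, PSMB8 and PSMB9 at days 10 to 24, and the ERAP2 row is positive in HepG2 and reaches -1.51 in SNU475.

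TAP1, the first transporter subunit, rose in SNU475 at days 10, 17 and 24 and in SNU398 at day 10, and it was not called in HepG2 on any day. In SNU475 its arrays read 12.25 and 12.42 untreated, 12.66 and 12.45 at day 3, 13.35 and 12.72 at day 10, 12.99 and 13.09 at day 17, 13.33 and 13.19 at day 24, 12.66 and 12.63 at day 31 and 12.44 and 12.35 at day 56. All 6 arrays of days 10 to 24 lay above both untreated arrays, and at day 56 the groups overlapped. The increases were 0.70 ± 0.16 (adjusted p = 0.00177), 0.71 ± 0.16 (0.00217) and 0.92 ± 0.16 (3.89e-05), the last one 1.90-fold. Day 56 lay below day 10 by 0.63 ± 0.16 (adjusted p = 0.0016), within 1 set of arrays. Both day 10 calls rested on day 10 replicate 1, the higher array: without it the increase was 0.38 (adjusted p = 0.136) and the later difference -0.32 (adjusted p = 0.143).

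In SNU398, TAP1 read 10.74 and 10.78 untreated, 10.87 and 10.88 at day 3, 11.58 and 11.41 at day 10, 11.22 and 10.82 at day 17 and 10.83 and 10.82 at day 24. Day 10 stood above all other SNU398 arrays, by 0.74 ± 0.16 over untreated (adjusted p = 0.000524) and by 0.62 ± 0.16 over day 3 (adjusted p = 0.00288), the latter within a set. In HepG2 the changes lay between -0.28 and -0.06.

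TAP2, the other transporter subunit, rose in HepG2 at day 10, from 7.93 and 8.27 to 8.76 and 8.78, by 0.67 ± 0.15 (adjusted p = 0.000644), and was at 7.98 and 7.46 by day 24. In SNU475 it fell at day 56, from 10.19 and 10.43 untreated to 9.70 and 9.54, by 0.69 on the log2 scale (adjusted p = 0.000266), and this was 2.14-fold below day 10 (10.69 and 10.76; adjusted p = 3.66e-07). The increase at SNU475 day 10, 0.41 ± 0.15 (adjusted p = 0.0449), was lost without untreated replicate 1 (adjusted p = 0.33) or either day 10 array (0.106 and 0.185), and with the deposited scaling it was 0.07. A second, dimmer TAP2 probe correlated with this one at r = -0.48 over 17 group means, and at 0.47 once each line was centred on its mean over days 0 to 24. It gave 0.19 in HepG2 at day 10 and -0.79 in SNU475 at day 56, and at SNU475 day 24 it was lower by 0.87 where the brighter probe read 0.11.

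TAPBP, which encodes tapasin, rose in HepG2 at day 24, from 10.70 and 10.54 to 11.41 and 11.19, by 0.69 ± 0.13 (adjusted p = 0.000171). Its other 2 probes gave 0.70 and 0.08. In SNU398 it fell at day 3, from 10.54 on both arrays to 9.87 and 10.10, by 0.55 on the log2 scale (adjusted p = 0.00135), and by day 10 it was back at 10.74 and 10.60. The other 2 probes read -0.12 and 0.15 at that day 3, neither called. The SNU475 increase at day 24, 0.38 ± 0.13 (adjusted p = 0.0244), was lost without untreated replicate 2 (adjusted p = 0.188) or day 24 replicate 2 (0.202) and under both other scalings, although another probe gave 0.86 and was called.

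The immunoproteasome subunits PSMB8 and PSMB9 rose together in SNU475 from day 10 to day 31. PSMB8 read 11.82 and 11.72 untreated, 11.94 and 11.99 at day 3, 12.31 and 12.59 at day 10, 12.51 and 12.48 at day 17, 12.66 and 12.77 at day 24, 12.28 and 12.25 at day 31 and 11.34 and 11.38 at day 56. All 8 arrays of days 10 to 31 exceeded both untreated arrays, while both day 56 arrays lay below them. The changes were 0.68, 0.73, 0.94 and 0.49, each with an SE of 0.14, and then -0.41 at day 56 (adjusted p = 0.000448, 0.000288, 3.06e-06, 0.0127 and 0.0129). Day 56 was 2.13-fold below day 10 (adjusted p = 1.08e-07) and 1.87-fold below day 31 (adjusted p = 2.56e-06), both within a set. The day 31 call was lost without untreated replicate 2 (adjusted p = 0.104) or either day 31 array (0.0771 and 0.0591) and under both other scalings, and the day 56 call without replicate 1 of either group (0.0923 and 0.0634).

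The other 3 PSMB8 probes were called higher in SNU475 at days 10, 17 and 24 as well, by 0.34 to 0.99. At day 56 they gave -0.25, -0.44 and -0.08. Across all 17 group means the 4 probes correlated at r = 0.78 to 0.999, with the large differences between lines as part of that, and at 0.64 to 0.95 with each line centred. The main PSMB8 probe was not called in HepG2 (changes from -0.12 to 0.11) or in SNU398 (0.07 to 0.30), where it stayed close to background. A dim PSMB8 probe was called lower in HepG2 at day 3 (-0.41) and day 10 (-0.38).

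For PSMB9 the SNU475 arrays read 10.92 and 10.73 untreated, 11.08 and 11.19 at day 3, 11.32 and 11.44 at day 10, 11.74 and 11.71 at day 17, 12.03 and 11.86 at day 24, 11.52 and 11.68 at day 31 and 10.84 and 10.95 at day 56. The level was highest at day 24 and the day 56 arrays overlapped the untreated ones. The increases at days 17, 24 and 31 were 0.90, 1.12 and 0.77, each with an SE of 0.17 (adjusted p = 0.000276, 5.99e-06 and 0.00163), and that at day 24 was 2.17-fold. Day 56 lay below day 31 by 0.70 ± 0.17 (adjusted p = 0.00102). The day 10 increase of 0.55 was lost without replicate 2 of either group (adjusted p = 0.153 and 0.121). A second PSMB9 probe gave 0.39, 0.46 and 0.21 at days 10, 17 and 24, with no call.

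In SNU398 PSMB9 went the other way. It fell from 7.89 and 7.81 untreated to 6.94 and 7.0 at day 3, where 1 of 2 arrays was above background, and was at 7.35 and 7.28 at day 10, 7.56 and 7.25 at day 17 and 7.52 and 7.98 at day 24. With the day 3 array below background set to the threshold, the decrease at day 3 was at least 1.82-fold (adjusted p = 0.000153) and the rise from day 3 to day 24 at least 1.70-fold (adjusted p = 0.00141). The decreases were 0.53 at day 10 (adjusted p = 0.0137) and 0.44 at day 17 (0.0416). The day 10 call was lost without untreated replicate 1 (adjusted p = 0.0799) or day 10 replicate 2 (0.0772), and the day 17 call without either untreated array (0.164 and 0.0944) or day 17 replicate 2 (0.334). The rise from day 3 was lost without day 24 replicate 2 (0.0661). With median scaling the changes at days 10 and 17 were -0.40 and -0.30 (adjusted p = 0.062 and 0.171), neither called. The day 17 call was also lost with the deposited scaling (-0.35, adjusted p = 0.104) and without background correction (-0.29, 0.0578). The second probe read -0.03, -0.22 and -0.52 at days 3, 10 and 17, with no call.

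PSMB10 fell in SNU398 from 13.20 and 13.27 to 12.61 and 12.58 at day 10, 12.78 and 12.84 at day 17 and 12.78 and 12.81 at day 24. All 6 of these arrays lay below both untreated arrays, by 0.64 ± 0.13 at day 10 (adjusted p = 0.00035), 0.43 at day 17 (0.013) and 0.44 at day 24 (0.0174). Day 10 was also 0.45 below day 3 within the set (adjusted p = 0.00864, and 0.106 without day 3 replicate 2). The day 24 call was lost without any 1 of its 4 arrays (adjusted p up to 0.113), and the day 17 call without untreated replicate 2 (0.0851) or day 17 replicate 1 (0.0751). In SNU475 PSMB10 rose at day 24, from 13.00 and 12.91 to 13.39 and 13.54 (0.51 ± 0.13, adjusted p = 0.00343), and was at 12.71 and 12.94 at day 31 and 13.49 and 13.40 at day 56 (0.49, adjusted p = 0.00295). It thus stood above day 31 by 0.62 ± 0.13 at day 56 (adjusted p = 0.000321), while PSMB8 and PSMB9 fell over the same interval. With the deposited scaling neither change from untreated was called (adjusted p = 0.113 and 0.132), and without day 24 replicate 2 that of day 24 had an adjusted p of 0.0504.

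In HepG2, PSMB9 rose at day 17 from 8.41 and 8.11 to 8.80 and 8.63 (0.45 ± 0.17, adjusted p = 0.0457) and PSMB10 fell at day 10 from 12.75 and 12.41 to 12.05 and 12.30 (0.40 on the log2 scale, adjusted p = 0.0191). Both rested on single arrays. The PSMB9 call was lost without untreated replicate 2 (adjusted p = 0.33) or either day 17 array (0.249 and 0.0637), and the PSMB10 call without replicate 1 of either group (0.298 and 0.226). The other PSMB9 probe read -0.02.

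None of the constitutive subunits that these 3 replace was called higher in SNU475 on any day. In SNU475, PSMB5, PSMB6 and PSMB7 changed by -0.06, -0.37 and -0.12 at day 10, none of them called, and at day 24 PSMB6 fell by 0.45 on the log2 scale (adjusted p = 0.00933). In SNU398, PSMB6 rose by 0.58 ± 0.13 at day 3 (adjusted p = 0.00125), 0.62 at day 10 and 0.60 at day 17. On these days the brighter probe of its counterpart PSMB9 was called lower, and the second PSMB9 probe was not called. All 3 constitutive subunits were called higher in SNU398 at day 17 (0.37, 0.60 and 0.45), beside 34.5% of all genes called in either direction. At SNU475 day 56, PSMB5 fell by 0.51 and PSMB7 by 0.64 on the log2 scale. Of 14 other 20S subunits and assembly factors, none was called in SNU475 at day 10 and 1 was higher at day 24, PSMG3 (0.48). The shares of all genes called in either direction on these days were 20.6% and 34.3%.

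**Figure D3:**
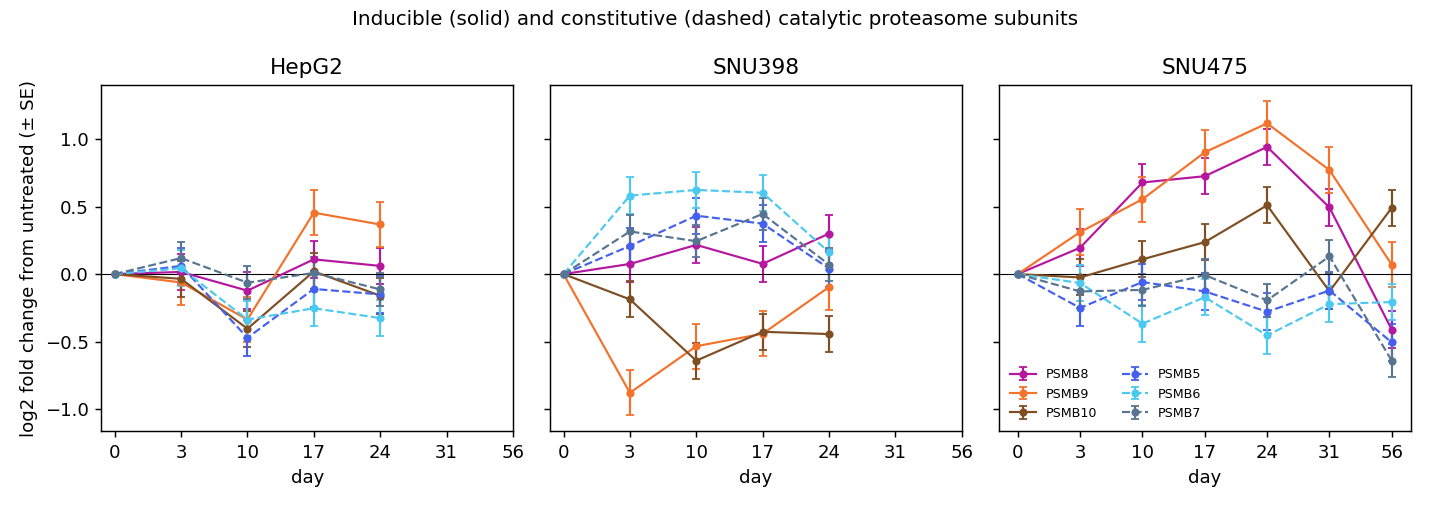
Log2 fold change from untreated cells with its standard error (vertical axis) by day (horizontal axis, evenly spaced) for the inducible subunits PSMB8, PSMB9 and PSMB10 (solid) and the constitutive subunits PSMB5, PSMB6 and PSMB7 (dashed), one panel a line. In SNU475 PSMB9 reaches 1.12 at day 24 while PSMB6 is at -0.45, and in SNU398 PSMB9 is at -0.88 at day 3, as read with 1 of 2 arrays above background, while PSMB6 is at 0.58.

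ERAP1 was not called in any of the 14 comparisons with untreated cells, with changes from -0.21 to 0.19. Its levels lay between 6.91 and 8.05 on all 34 arrays. In SNU475, day 56 (7.72 and 7.48) was below day 10 (8.05 and 7.94) by 0.40 ± 0.15 (adjusted p = 0.028), and the call was lost without either day 10 array (0.144 and 0.0523) or day 56 replicate 2 (0.244).

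ERAP2 showed the largest changes among the members, on its brighter probe. In HepG2 that probe read 13.27 and 13.18 untreated, 14.16 and 14.27 at day 3, 14.44 and 14.48 at day 10, 14.55 and 14.76 at day 17 and 13.94 and 13.93 at day 24. All 8 treated arrays were above the untreated ones, and the increases were 0.99, 1.24, 1.43 and 0.71, each with an SE of 0.14 (adjusted p = 8.59e-06, 5.54e-08, 5.82e-09 and 0.000365), within 1 set. In SNU475 the same probe read 14.33 and 14.21 untreated, 14.29 and 14.27 at day 3, 14.81 and 14.65 at day 10, 14.43 and 14.66 at day 17, 13.36 and 13.56 at day 24, 12.75 and 12.76 at day 31 and 12.92 and 12.60 at day 56. It was thus called higher at day 10 (0.46) and lower from day 24 on, by 0.82 ± 0.14 at day 24 (adjusted p = 4.68e-05) and by 1.51 ± 0.14, 2.85-fold, at days 31 and 56 (adjusted p = 3.98e-09 and 5.26e-10). Day 31 was 3.91-fold below day 10 within the set (adjusted p = 2.1e-11).

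The second ERAP2 probe did not show these changes. It read between 9.24 and 9.99 on the 10 HepG2 arrays, 6.96 to 7.36 in SNU398 and 7.62 to 8.06 in SNU475. In HepG2 its changes were -0.13, -0.50, 0.16 and -0.06 on the 4 days, of which the decrease at day 10 was called, and in SNU475 they lay between -0.17 and 0.14 with no call. The probes also ordered the untreated lines differently: HepG2 was below SNU398 by 1.06 on the brighter probe and above it by 2.61 on the dimmer one. Over the 17 group means they correlated at r = -0.11, and at 0.26 with each line centred on its mean over days 0 to 24. The genes with the most similar pattern to the brighter probe were ZMAT3 (r = 0.992), BMS1P1 (0.991) and CDKN2AIPNL (0.988), and 85 of 15288 genes exceeded r = 0.95, a value that 0 genes reached for any other member. The points share lines, days and arrays, so that these correlations describe these groups and carry no p. ERAP2 results therefore differ with the probe, and which probe reads the ERAP2 transcript was not tested.

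In SNU398 the brighter ERAP2 probe went from 14.28 and 14.30 to 15.01 and 14.50 at day 3 (0.46 ± 0.14, adjusted p = 0.0121). The call was lost without day 3 replicate 1 (adjusted p = 0.35) or either untreated array (0.0614 and 0.0513). The day 10 increase in SNU475 (adjusted p = 0.0216) was lost without either untreated array (0.0523 and 0.147) or day 10 replicate 1 (0.167), and read 0.07 with the deposited scaling.

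**Figure D4:**
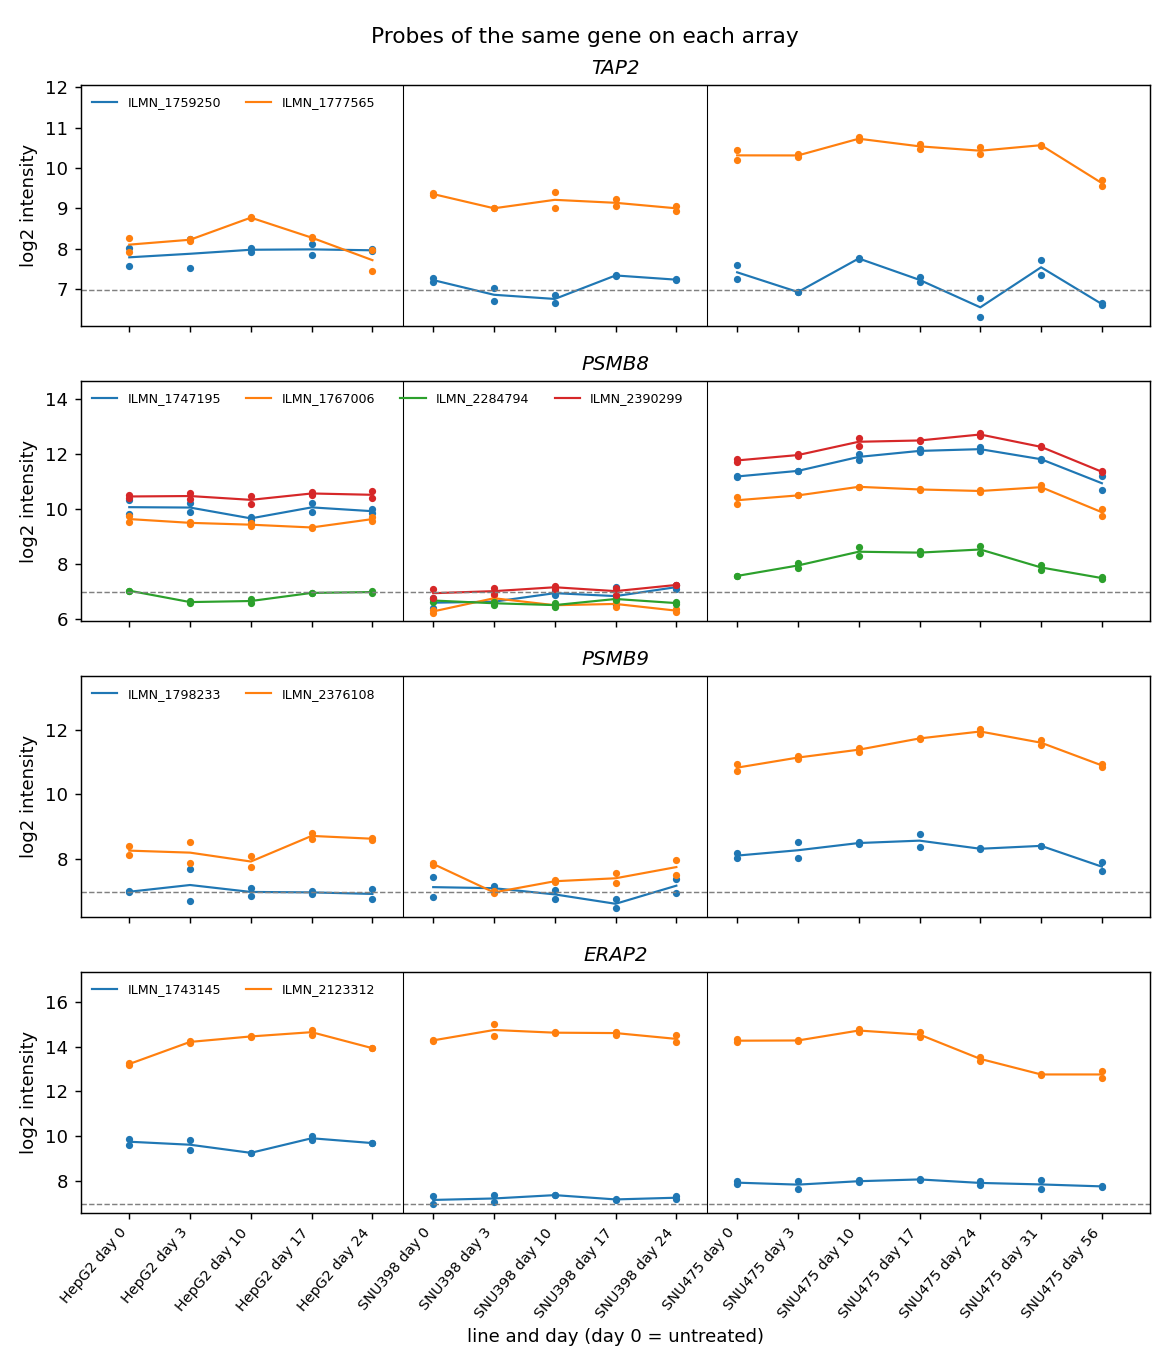
Normalized log2 intensity (vertical axis) of each kept probe (colour) of TAP2, PSMB8, PSMB9 and ERAP2 in 17 groups of line and day (horizontal axis); points are arrays, lines join group means within a line, and the dashed line is the background threshold of 6.97. The 4 PSMB8 probes rise and fall alike in SNU475, whereas in HepG2 the brighter ERAP2 probe goes from 13.27 and 13.18 to 14.55 and 14.76 at day 17 and the dimmer one stays between 9.24 and 9.99.

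NLRC5, the transactivator, was near background throughout. Its probe was above background on 9 of 34 arrays, all of SNU475, and on both arrays of a group at days 3, 10, 17 and 24. There it read 6.89 and 6.67 untreated, 7.22 and 7.13 at day 3, 7.33 and 7.59 at day 10, 7.38 and 7.06 at day 17, 7.11 and 7.50 at day 24, 7.35 and 6.92 at day 31 and 6.88 and 6.58 at day 56. Since the untreated group was not above background, the increases are bounds, from the mean of the brighter group over the background threshold: at least 1.40-fold at day 10 (adjusted p = 0.00677) and at least 1.26-fold at day 24 (0.0231). Day 56 was below day 10 by at least 1.40-fold (adjusted p = 0.00137). The probe passed the background filter only through SNU475 at days 3, 10, 17 and 24, so these differences are partly selected for. The day 10 call was lost without replicate 2 of either group (adjusted p = 0.0883 and 0.101), and so was the day 24 call (0.174 and 0.276). In HepG2 at day 17 the gene was called higher (adjusted p = 0.00703) although neither group was above background, so no fold is given, and without replicate 1 of either group the call was lost (0.0868 and 0.0701).

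Between later days of SNU475, all on arrays of 1 set, 8 members differed at day 56 from day 10, 1 higher (PSMB10) and 7 lower, where 45.6% of all genes were called. NLRC5 is among the 7, and its probe passed the background filter only through SNU475 at days 3, 10, 17 and 24, so that call is partly selected for. Without day 10 replicate 1 the TAP1 and ERAP1 differences were -0.32 and -0.34 and lost their calls. The ERAP2 calls between these days are on its brighter probe. At day 17, 0 of 9 differed from day 10 in limma, beside 0.595% of all genes, and at day 24 it was 3 of 9 (PSMB9, PSMB10 and ERAP2) beside 11.4%. The PSMB9 and PSMB10 calls at day 24 were lost without any 1 of the 4 arrays (adjusted p = 0.0606 to 0.189 and 0.0867 to 0.27), and the other PSMB9 probe gave -0.18. The day 56 calls of PSMB9 and PSMB10 were lost without day 10 replicate 2 (adjusted p = 0.109 and 0.137) or day 56 replicate 1 (0.104 and 0.11). From day 10 to day 31 ERAP2 alone was called, beside 26.7% of genes. From day 31 to day 56, TAP2, PSMB8 and PSMB9 were lower and PSMB10 was higher, beside 45.0%. In HepG2, day 10 was called apart from day 3 in TAP2 and PSMB10 (28.1% of all genes) and day 24 in TAP2 and TAPBP (16.0%). PSMB10 lost that call without replicate 1 of either day (adjusted p = 0.275 and 0.318). At day 24 TAP2 lost it without either day 3 array (adjusted p = 0.0941 and 0.0546) or day 24 replicate 2 (0.398), and TAPBP without day 3 replicate 2 (0.189) or day 24 replicate 1 (0.19), and another probe of each turned the direction (0.09 for TAP2 and -0.11 for TAPBP). In SNU398, day 10 was called apart from day 3 in TAP1, TAPBP and PSMB10 (34.1%) and day 24 in TAPBP and PSMB9 (18.1%). The other TAPBP probes gave -0.19 and -0.18 at day 10, 1 of them gave -0.03 at day 24, and the day 24 call was lost without replicate 1 of either day (adjusted p = 0.0828 and 0.0615).

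The mean change over days 3, 10, 17 and 24 was compared between lines, and 4 members differed in each pair, beside 35.9% of all genes for HepG2 against SNU398, 25.4% for HepG2 against SNU475 and 36.1% for SNU398 against SNU475. The widest gap was that of PSMB9, which changed by 1.21 ± 0.19 less in SNU398 than in SNU475 (adjusted p = 8.80e-06), 2.31-fold, with SNU398 day 3 above background on 1 of 2 arrays. ERAP2 on its brighter probe changed by 1.11 ± 0.16 more in HepG2 than in SNU475 (adjusted p = 4.47e-06), and on its dimmer probe by -0.16. TAP1 changed by 0.81 less in HepG2 than in SNU475 (-0.81 ± 0.18, adjusted p = 0.00104) and PSMB10 by 0.63 less in SNU398 than in SNU475 (-0.63 ± 0.15, adjusted p = 0.00128).

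The rest of the pathway was followed in fixed lists, whose counts stand beside all-gene shares called of 20.6%, 14.7%, 34.3%, 14.1% and 47.7% in SNU475 at days 10, 17, 24, 31 and 56, 32.8% in HepG2 at day 10 and 35.4% in SNU398 at day 10. Of 6 class I heavy chains and B2M tested, all 6 rose in SNU475 at days 10, 17 and 24, 5 at day 31 and 4 at day 56. HLA-B rose by 1.66, 1.46 and 1.97 at days 10 to 24, and B2M, the light chain, by 0.67, 0.58 and 0.73. In HepG2 at day 10, 5 of the 6 rose, HLA-B by 2.85 ± 0.14 (adjusted p = 5.15e-16), while of the 9 processing genes TAP2 and ERAP2 did, on their brighter probes. The dimmer ERAP2 probe gave -0.50 there and was called lower. In SNU398 at day 10 also 5 rose, HLA-E by 0.99 and HLA-B by 0.98, beside TAP1.

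The PA28 activator subunits PSME1 and PSME2, which bind the ends of the proteasome core, both rose in SNU475 at day 24 (0.71 and 0.39) and PSME1 also at days 10 (0.42) and 17 (0.58). PSME2 rose most at day 31 (0.62), where PSME1 was not called. PSME3, a nuclear activator, fell by 0.84 at day 24 and 1.18 at day 56 on the log2 scale. In SNU398 at day 3, PSME1 and PSME2 fell by 0.48 and 0.72 while PSME3 rose by 0.64, on the day the brighter PSMB9 probe was called lower. Of 5 peptide loading chaperones, 3 rose in SNU475 at day 24, the tapasin relative TAPBPL (0.61), HSP90B1 (0.54) and HSPA5 (0.45). Of 7 other trimming peptidases, none rose and 3 fell at that day, led by THOP1 (-0.79), a cytosolic peptidase.

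Among 15 regulators of the class I promoters and of interferon gamma signalling, 4 rose and 1 fell in SNU475 at day 10, beside 20.6% of all genes called, and 5 and 1 at day 24, beside 34.3%. The day 24 count is near the share over all genes. RFX5, which binds class I promoters, rose by 0.60 and 0.63 on these days, and the interferon regulatory factor IRF1 by 0.35 and 0.30. IRF1 rose more at SNU475 day 56 (1.12 ± 0.11, adjusted p = 1.27e-09), a day on which PSMB8 and TAP2 were below untreated. In HepG2, IRF1 rose by 0.59, 0.43 and 0.88 at days 3, 10 and 17, and in SNU398 by 0.52 at day 10 and 0.63 at day 17. Of 21 interferon targets, 6 rose and 0 fell in SNU475 at day 10, 7 and 2 at day 24 and 10 and 3 at day 56, beside 20.6%, 34.3% and 47.7% of all genes called in either direction. IFI27 had the largest increase at the first 2 of these days (3.84 and 4.0). In SNU398 at day 10, 10 rose and 2 fell, with IFI27 (2.35) and ISG15 (2.18) in front. The medians of these 21 targets were 0.12, 0.20 and 0.28 in SNU475 at days 10, 24 and 56, beside 0.01, 0.02 and -0.04 over all genes.

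Centred on each line, TAP1 and PSMB8 varied together over the 17 group means (r = 0.78), as did TAP2 and ERAP1 (0.75), PSMB8 and PSMB9 (0.72), PSMB8 and NLRC5 (0.71) and TAP1 and NLRC5 (0.67). NLRC5 was above background on both arrays in 4 of the 17 groups, all of SNU475, and its probe passed the filter only through these. Its correlations with PSMB8 and TAP1 are therefore partly selected for, and in the remaining groups its level lay near background. PSMB10 did not vary with TAP1 (0.00) or PSMB8 (-0.04), and its lowest value was with ERAP1 (-0.57). TAP1 and TAP2, the subunits of 1 transporter, correlated at 0.35. Outside the members, B2M was among the 3 genes most like TAP1 (r = 0.896), after CCN6 (0.919) and FUCA1 (0.900). VSIR (0.948), SCIN (0.946) and NAALAD2 (0.921) were most like PSMB8, and ATP5PO and AQP11 (both 0.862) most like PSMB9. These are descriptions over groups that share lines and arrays.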

How the data were processed

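Linear probe intensities were used as the authors deposited them for 34 arrays, 47230 probes. The authors' own normalization was not given in the sources used here. Per the labels' protocols, RNA was extracted with Trizol, treated with DNase I during RNeasy clean-up, and labelled with the Ambion MessageAmp kit. A further 72 columns named by array barcode, which no label ties to a sample, were not used. Precision is limited by 2 arrays a group, and replicate arrays correlated across genes at r = 0.9916 to 0.9953 (genes are not independent replicates).

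In limma 3.58.1 (R 4.3.3), intensities were background-corrected with normexp (offset 50), quantile normalized and put on the log2 scale. The background threshold added 1.645 times 0.2981, the spread of the dim side, to 6.484, the mode of the averaged sorted arrays. A probe was kept where both arrays of at least 1 group exceeded it, and the brightest kept probe on average stood for its gene. A single gene symbol is listed for 30113 probes, several for 8 and none for 17109; 30074 of the first matched RefSeq (GRCh38.p14) and 20999 were kept, which gave 15297 genes. One mean for each of 17 groups was fitted (17 residual and 10.9 prior degrees of freedom). The 29 comparisons used limma's moderated test, two-sided, with Benjamini-Hochberg adjustment over all genes in each. The fit was tested on simulated data.

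The members, gene lists, comparisons and alternatives were chosen with earlier results of these data known. All members are named, with the 3 genes most like each (Pearson's r over 17 group means, each line centred on its mean over days 0 to 24) and at most 3 called genes a list and comparison, beside a fixed set of pathway genes. Replicate numbers do not pair the samples: deviations of same-numbered arrays correlated at -0.139 to 0.166 over 136 pairs of groups. Alternatives were other scalings, filters, probe rules and fits, and leaving out each array.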

Additional observations from a re-analysis of the deposited data

Results flagged for a closer look

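The mean change over days 3, 10, 17 and 24 from untreated differed between lines, by limma's test of the difference itself, for 12 combinations of a member and a pair of lines. Each pair had 4 of 9 members called. Of all genes, 35.9% were called for HepG2 against SNU398, 25.4% for HepG2 against SNU475 and 36.1% for SNU398 against SNU475. Values are log2 differences, with 2 arrays in each group.

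HepG2 changed less than SNU398 in TAP1, the transporter subunit (-0.4636, adjusted p = 0.0419), and more in TAPBP (0.4981, 0.00791), PSMB9 (0.5941, 0.0141) and ERAP2 on its brighter probe (0.7897, 0.000266). The TAP1 difference lost its call in 11 of 20 leave-one-out fits, and that of PSMB9 without HepG2 day 0 replicate 2 (adjusted p = 0.132) or SNU398 day 0 replicate 1 (0.066). TAPBP lost its call without HepG2 day 0 replicate 2 (0.0688). With median scaling TAPBP gave 0.3411 (adjusted p = 0.0639) and PSMB9 0.4576 (0.0562), neither called.

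HepG2 changed less than SNU475 in TAP1 (-0.8051, adjusted p = 0.00104), PSMB8 (-0.6196, 0.00275) and PSMB9 (-0.6152, 0.0155), and more in ERAP2 (1.1087, 4.47e-06). The PSMB9 difference was lost without HepG2 day 0 replicate 1 (adjusted p = 0.145) or SNU475 day 0 replicate 2 (0.11), and under both other scalings, at -0.3767 with the deposited one (adjusted p = 0.134) and -0.4943 with median scaling (0.0537).

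SNU398 changed less than SNU475 in TAP2 (-0.4523, adjusted p = 0.0308), PSMB8 (-0.4687, 0.0159), PSMB9 (-1.2093, 8.80e-06) and PSMB10 (-0.6329, 0.00128). The TAP2 difference was lost without either SNU398 day 0 array (adjusted p = 0.105 and 0.0715) or SNU475 day 0 replicate 1 (0.212), and that of PSMB8 without SNU398 day 0 replicate 2 (0.209) or SNU475 day 0 replicate 2 (0.086). Both also lost their calls under the other scalings: with the deposited one TAP2 gave -0.0465 (adjusted p = 0.843) and PSMB8 -0.2792 (0.144), and with median scaling -0.1101 (0.618) and -0.3428 (0.0725). The ERAP2 differences were on the brighter probe, and the dimmer one gave -0.2353 against SNU398 and -0.1617 against SNU475. In SNU398 and SNU475 the treated and untreated arrays lie in different sets of deposited arrays on all or most of these days, and the part of the set in these differences cannot be told apart from treatment.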

How the results depend on the processing

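No direction of a called change from untreated turned under another background correction, scaling, filter or fit, or without any 1 array, when the gene kept its brightest probe. Of 41 called member changes from untreated, 23 kept their call without each array of the comparison and 18 lost it without at least 1; 34 kept it with median scaling and 31 with the deposited scaling. The set of arrays as a block could not be fitted, because no group lies in more than 1 set. The cause of the shifts below was not tested, except that requiring a probe above background on all 34 arrays leaves out PSMB8, PSMB9, ERAP1 and NLRC5 by construction.

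Counts of members called moved as follows. With the deposited scaling they were 3 of 9 for SNU475 day 10 (6 otherwise), 4 for day 24 (7) and 1 for SNU398 day 17 (2), and with median scaling 3 for SNU475 day 10 and 2 for the HepG2 and SNU398 mean changes (4). With probes above background on all 34 arrays they were 3, 1, 4 and 1 for SNU475 days 10, 17, 24 and 31 (6, 3, 7 and 3), 2, 4 and 2 for day 31 against 10, 56 against 10 and 56 against 31 (1, 8 and 4), 4 and 5 for untreated HepG2 against SNU398 and SNU475 (7 and 8), and 2 and 2 for the mean changes of HepG2 and of SNU398 against SNU475 (4 and 4). Without background correction SNU398 day 24 had 2 (1) and SNU475 day 31 against 10 had 2 (1). Without a filter SNU398 day 17 and HepG2 day 10 against 3 had 1 each (2 and 2). With the mean of all kept probes HepG2 day 10 against 3 had 1, HepG2 day 24 against 3 had 0 and SNU398 day 24 against 3 had 1 (2 each), and with each line fitted on its own the first 2 had 1 and 0. Leaving out 1 array gave 1 to 2 for HepG2 day 17 (3), 1 to 3 for HepG2 day 10 against 3 and 0 to 2 for day 24 against 3 (2 and 2), 0 to 1 for SNU398 day 17 (2), 0 to 0 for day 24 (1), 1 to 3 for SNU398 day 24 against 3 (2), 3 to 4 for SNU475 day 10 (6), 4 to 7 for day 24 (7), 1 to 1 for day 24 against 10 (3), 1 to 2 for day 31 against 10 (1), 5 to 7 for day 56 against 10 (8), and 2 to 5 for the mean changes of HepG2 and of SNU475 against SNU398 (4 each).

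Other probes turned the direction. ERAP2's dimmer probe gave -0.1345, -0.4984 and -0.0605 in HepG2 at days 3, 10 and 24, and 2.6089, 1.8343 and -0.7746 for untreated HepG2 against SNU398, HepG2 against SNU475 and SNU398 against SNU475 (0.7746, 0.3949 and -0.3797 with the mean of both), and -0.2353 and -0.1617 for the mean changes of HepG2 against SNU398 and SNU475. TAP2's gave -0.8659 at SNU475 day 24 (mean of both -0.3756), 0.0860 for HepG2 day 24 against 3, 0.5635 and 0.3710 for untreated HepG2 against SNU398 and against SNU475, and 0.1234 for the mean change of SNU398 against SNU475. PSMB8 probes gave -0.4516 for SNU398 day 24 against 3 and -0.4147 at HepG2 day 3. TAPBP probes gave -0.1900 and -0.1839 for SNU398 day 10 against 3, 0.1521 at SNU398 day 3, -0.1074 for HepG2 day 24 against 3 and -0.0343 for SNU398 day 24 against 3. The second PSMB9 probe gave -0.0195 at HepG2 day 17, -0.1771 for SNU475 day 24 against 10 and -0.1427 for untreated HepG2 against SNU398.

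Over all genes, the deposited scaling moved the median change in SNU475 from day 10 on by -0.21 to -0.27 and the share of increases among calls to 13.5%, 11.8%, 20.4%, 8.57% and 24.1% at days 10, 17, 24, 31 and 56 (56.3%, 59.1%, 53.8%, 50.5% and 46.0%), with 5740, 5148 and 5264 genes called at days 10, 17 and 31 (3150, 2242 and 2160). With median scaling these shares were 33.6%, 34.4%, 38.8%, 27.3% and 36.4%, and in SNU398 68.4%, 72.3%, 69.4% and 78.7% at days 3, 10, 17 and 24 (50.8%, 56.4%, 52.7% and 55.3%). With the replicate block 2 member calls were lost, TAP2 at SNU475 day 10 (0.4113, adjusted p = 0.0501) and PSMB10 for SNU475 day 24 against 10 (0.4002, adjusted p = 0.0537), and 259 results kept theirs, so it changed no other call. NLRC5, ERAP1 and the SNU398 level of PSMB8 lie close to background, which limits what a change there can show.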
